A study of Homo sapiens with 9 samples.

Results

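Lysosomal transcripts were followed in SW620 cells exposed to an aminoglycoside or to its reduced form. The genes were 39 named members of the lysosomal system, taken by symbol from the deposited count table: 5 membrane proteins, 7 proteases, 9 glycan-degrading enzymes (glycosidases and the sulfatase SGSH), 7 lipid hydrolases and lipid-binding proteins, 9 subunits or accessory proteins of the vacuolar H+-ATPase (V-ATPase), and 2 transcription factors. All 39 were found among the 28307 genes of the table, and all 39 were among the 15619 genes with enough reads to be tested. The rule names them by function and uses no measured value, but it was written with earlier results of these data known.

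SW620 is an established human line, labelled wild type, that derives from a metastasis of a colon adenocarcinoma. The cells were grown in suspension, in low-attachment plates coated with Poly-HEME, in M11 medium with N2, glucose, insulin, bFGF and EGF. Untreated cultures (n = 3) were compared with cultures given 120 µM streptomycin (SM, n = 3) or 120 µM dihydrostreptomycin (DSM, n = 3) for 48 h. DSM is the reduced form of SM, with an alcohol in place of the aldehyde on streptose. The design text describes the cultures as biological replicates, and each p-value rests on the spread between these cultures of 1 line. In fits that include the replicate number, it rests on the spread left after differences between the numbers are taken out. RNA came from whole cultures, so fewer cells of a type and less RNA per cell cannot be told apart.

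The lysosome is an acidic organelle that breaks down proteins, glycans and lipids with hydrolases that work at low pH. The V-ATPase pumps the protons, and heavily glycosylated membrane proteins such as LAMP1 and LAMP2 line the inner face of the membrane. TFEB and TFE3 are transcription factors that enter the nucleus when lysosomes are stressed or nutrients are scarce and bind an E-box motif shared by many lysosomal promoters. Aminoglycosides enter cells by endocytosis and collect in lysosomes, where they are known to disturb the handling of phospholipids.

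Total counts ranged from 39315662 in SM replicate 2 to 65562227 in untreated replicate 1, and the 39 genes took 0.332% to 0.354% of the counts in every library. Libraries that share a replicate number deviated together, so a fit with that number as a block is given beside the fit without it wherever the call differs. Epithelial transcripts were abundant in untreated cells, with 437.3 CPM (counts scaled to a common library total) of the adhesion protein EPCAM and 6619 CPM of the keratin KRT8, while the differentiation markers KRT20, CDX1 and LGALS4 were at or below 0.336 CPM. With the block, 2 of 11 tested colon epithelium markers and 1 of 4 tested fibroblast markers were lower in SM against untreated cells. The counts were the same against DSM, and 1.54% and 2.15% of all genes were lower in these comparisons. Without the block 0 of these markers passed an adjusted p of 0.05. The log2 fold change was negative for 10 of the 11 colon epithelium markers in SM against untreated and for 9 against DSM. The part of these markers in the results was not tested. Of 11 macrophage and leukocyte markers 3 passed the filter, AIF1 and TYROBP were at 0, and the summed level of the list was 5.4 to 9.18 CPM in untreated, 5.47 to 9.82 in SM and 7.08 to 9.84 in DSM libraries. Of 8 fibroblast markers 4 passed, COL3A1 and DCN were at 0, and the sums were 16.0 to 27.2, 12.8 to 25.3 and 16.6 to 26.2 CPM in the same order.

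The motif bound by TFEB and TFE3 was looked for in 300-base windows, from 250 bases before to 50 after each RefSeq start, on both strands. RefSeq promoter entries (GRCh38.p14) were matched for 27 of the 39 genes. The letters searched were CACGTG, CACGTGAC and a 10-base form with GT before and AC after CACGTG, and each longer one contains the shorter. CACGTG was present for 8 of the 27 genes (29.6%), against 8.77% of all genes with an entry and 12.1% of the tested genes. CACGTGAC was present for 6 (22.2%, against 2.93% and 4.92%), and the 10-base form for 2 (7.41%, against 0.421% and 0.824%). The 8 genes were ATP6V0D1, CD63, CTSA, CTSD, GAA, LAMP1, MCOLN1 and NEU1. The sites below belong to 4 genes whose values in every library follow, and are shown because they carry CACGTGAC or the 10-base form. LAMP1 had 6 matches of CACGTGAC in its window, and only the closest one before the start is shown. Capitals mark the longest match on either strand, each sequence reads 5′ to 3′ on the strand of the gene, and all lie before the start site.
GAA, chr17:80101490-80101525, plus strand: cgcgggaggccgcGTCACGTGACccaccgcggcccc
GAA, chr17:80101535-80101570, plus strand: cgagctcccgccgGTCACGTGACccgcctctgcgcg
MCOLN1, chr19:7522568-7522603, plus strand: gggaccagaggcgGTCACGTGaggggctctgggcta
MCOLN1, chr19:7522595-7522623, plus strand: tctgggctaccggGTCACGTGACcgaggc
CTSD, chr11:1763954-1763989, minus strand: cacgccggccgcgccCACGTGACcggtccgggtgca
LAMP1, chr13:113297196-113297231, plus strand: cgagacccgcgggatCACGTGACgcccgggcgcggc
A match is only a description of these letters, and no binding was measured.

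As a module, the lysosomal genes stayed within the spread of the cultures. The mean log2 CPM over the 39 genes was 5.62 ± 0.024 (SD, n = 3) in untreated, 5.63 ± 0.048 in SM and 5.65 ± 0.024 in DSM libraries. The differences in this mean were 0.0038 for SM against untreated, 0.022 for DSM against untreated and -0.019 for SM against DSM, each smaller than the SD of at least 1 of the groups compared. Summed over the 39 genes, the level was 3424 ± 85.1 CPM in untreated, 3422 ± 128 in SM and 3435 ± 62.1 in DSM libraries (SD, n = 3). The pairs of libraries with the same replicate number did not share a direction: the mean log2 difference of the members between SM and untreated was 0.049, -0.021 and -0.016 for numbers 1, 2 and 3. By role, these pair means were 0.16, 0.0047 and 0.080 for the proteases and -0.021, -0.060 and -0.053 for the glycan-degrading enzymes. In every other role the pairs did not share a direction. Differences between these small roles were not tested.

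The median log2 fold change of the 39 genes was -0.016 for SM against untreated, 0.0018 for DSM against untreated and -0.025 for SM against DSM. Over all genes tested these medians were -0.00073, -0.00044 and 0.00026. A positive log2 fold change was found for 16, 21 and 16 of the 39 genes, or 41.0%, 53.8% and 41.0%, against 49.7%, 49.6% and 50.2% of all genes. The comparisons share libraries, so these values are not independent.

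**Figure D1:**
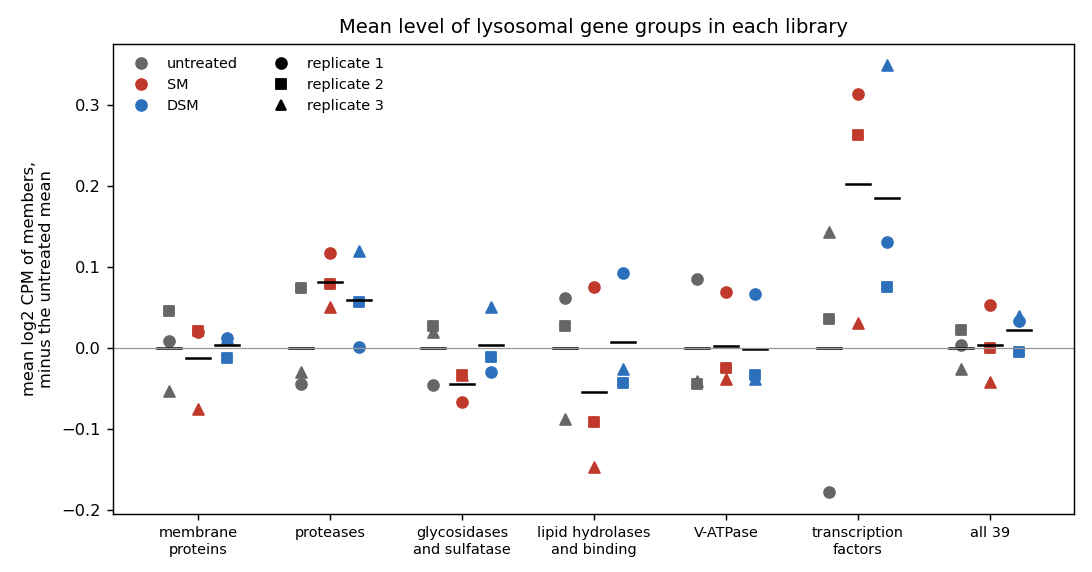
Mean log2 CPM of the lysosomal genes by role, for each of the 9 libraries, as the difference from the mean of the 3 untreated libraries; each point is 1 library and black bars are group means. The mean over all 39 genes differs between groups by at most 0.022, and the transcription factors, which are only 2 genes, spread most widely.

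In SM cells 2 single genes departed from this level in 1 of the fits. In the fit without the block, 0 of the 39 genes passed an adjusted p of 0.05 for SM against untreated, where 0.0192% of all genes did, and 3 of the 39 had an unadjusted p under 0.05, as did 365 of all genes (edgeR quasi-likelihood with Benjamini-Hochberg adjustment). DESeq2 and limma voom also called 0 of the 39 without the block. In the fit with the replicate block, 2 of the 39 (5.13%) were higher in SM than in untreated cells and 0 were lower, against 2.74% of all genes called, 1.2% higher and 1.54% lower. The 2 genes were CTSB and TFE3. At an unadjusted p under 0.05 the members numbered 11 with the block, against 2317 of all 15619 genes (edgeR). This share was larger among the 39 members than among all genes, and the difference was not tested. Of the 9 uncalled members among the 11, CTSL, ATP6V1C1 and ATP6V1H were higher in SM. The rest, CTSC, NEU1, MAN2B1, SMPD1, PLA2G15 and ATP6V1A, were lower. A count of 2 calls is too small to set the members apart from the share called over all genes, so each gene's values follow.

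CTSB encodes cathepsin B, a cysteine protease of the lysosome that can act as an endopeptidase and a dipeptidyl carboxypeptidase. Its gene lies at chr8:11842524-11868087 (GRCh38.p14), and no other RefSeq gene record overlaps it. Its level was 108.7, 124.2 and 109.1 CPM in untreated replicates 1 to 3, 125.6, 143.3 and 129.2 CPM in SM, and 107.3, 121.4 and 107.6 CPM in DSM. The lowest SM library was above the highest untreated and the highest DSM library, and replicate 2 was the highest of each group. In SM the level was 1.16 times that of untreated cells (log2 fold change 0.22, SE 0.031 with the block, 95% interval 0.15 to 0.29), and the 3 same-numbered pairs gave 0.21, 0.21 and 0.24. The adjusted p was 1.273e-04 with the block and 0.9999 without it (edgeR quasi-likelihood, Benjamini-Hochberg). CTSB kept its call in all 9 blocked fits that left out 1 library, with log2 fold changes of 0.21 to 0.23 and adjusted p-values of 1.704e-04 to 0.0092 (edgeR).

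TFE3 encodes one of the factors that drive lysosomal genes, and lies at chrX:49028726-49043357 (GRCh38.p14) with no overlapping record. Its level was 90.1, 87.9 and 85.4 CPM in untreated replicates 1 to 3, 98.3, 101.5 and 94.2 CPM in SM, and 85.5, 86.4 and 88.9 CPM in DSM. All SM libraries were above all untreated and all DSM libraries, and the latter groups overlapped. The log2 fold change for SM against untreated was 0.16 (SE 0.036 with the block, 95% interval 0.082 to 0.23; pairs 0.13, 0.21 and 0.14). Its adjusted p was 0.0157 with the block and 0.9999 without it (edgeR quasi-likelihood, Benjamini-Hochberg). The call rested on most libraries being present: the blocked adjusted p in edgeR was 0.0553, 0.158 and 0.203 without untreated replicate 1, 2 or 3 and 0.0619 without SM replicate 2, with log2 fold changes of 0.13 to 0.18.

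TFEB, the best-studied factor of the same family, was the member with the lowest level per length. Its level was 0.731, 1.02 and 1.23 CPM in untreated replicates 1 to 3, 1.35, 1.22 and 0.945 CPM in SM, and 1.21, 1.1 and 1.58 CPM in DSM. All 3 groups overlapped. At this level the blocked 95% interval of the log2 fold change ran from -0.21 to 0.70 for SM and from -0.053 to 0.83 for DSM against untreated, so sizeable changes in either compound were not detectable.

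**Figure D2:**
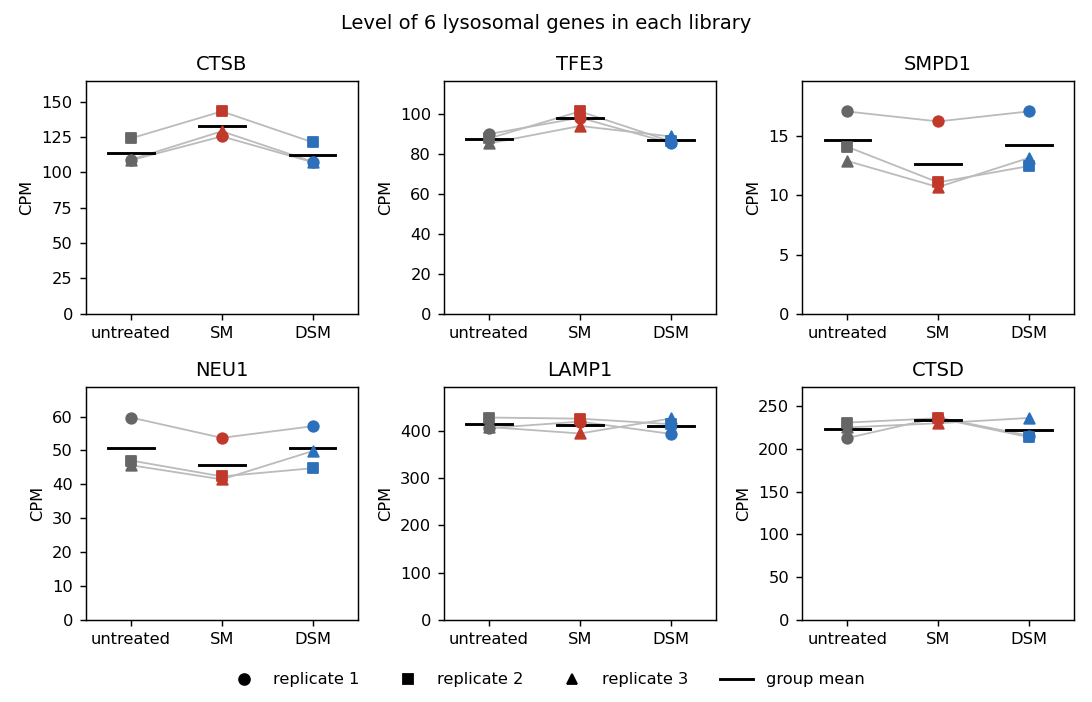
CPM of CTSB, TFE3, SMPD1, NEU1, LAMP1 and CTSD in each library; each point is 1 library, thin lines join libraries with the same replicate number, black bars are group means, and each vertical axis starts at 0. The 3 SM libraries of CTSB, 125.6 to 143.3 CPM, and of TFE3, 94.2 to 101.5 CPM, lie above all others of these genes, while LAMP1 overlaps in all groups.

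Among the other proteases, cathepsin D, an aspartic protease encoded by CTSD, had 213.0, 231.1 and 225.4 CPM in untreated replicates 1 to 3, 237.0, 236.2 and 230.3 in SM, and 215.7, 214.0 and 236.5 in DSM. The SM values lay near the top of the range but overlapped both other groups, and the log2 fold change against untreated was 0.072 (blocked 95% interval -0.0045 to 0.15, adjusted p = 0.375 in edgeR). CTSC, a dipeptidyl peptidase that activates granule proteases, pointed the other way, with 273.0, 269.5 and 256.6 CPM in untreated, 258.9, 248.2 and 237.1 in SM and 265.7, 262.1 and 260.4 in DSM. All SM libraries of CTSC were below all DSM libraries and overlapped the untreated ones, and the log2 fold change against untreated was -0.10 (blocked adjusted p = 0.0839 in edgeR). CTSL, cathepsin L, had only 1.87 to 2.62 CPM in untreated libraries, 2.40 to 3.12 in SM and 2.32 to 2.89 in DSM. Its blocked intervals, 0.031 to 0.66 for SM and 0.0061 to 0.62 for DSM, were among the widest of the members, and its adjusted p-values were 0.282 and 0.999 (edgeR).

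Of the 9 glycan-degrading enzymes, 2 (22.2%) had a positive log2 fold change in SM against untreated, against 49.7% of all genes. With the block 0 of the 9 passed, where 2.74% of all genes did, and nothing is read from so small a list. NEU1 encodes the lysosomal sialidase, which removes terminal sialic acids. Its level was 59.7, 47.0 and 45.6 CPM in untreated replicates 1 to 3, 53.7, 42.3 and 41.5 CPM in SM, and 57.1, 44.7 and 49.8 CPM in DSM. The groups overlapped because replicate 1 was high in each, yet SM was below untreated in each same-numbered pair, by log2 differences of -0.15, -0.15 and -0.14. The log2 fold change was -0.15 (SE 0.044 with the block), and the adjusted p was 0.0713 with the block in edgeR. It was 0.0353 without DSM replicate 3, the only blocked fit leaving out 1 library that called NEU1 (edgeR).

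GAA, the acid alpha-glucosidase that degrades glycogen, carries the 2 sites of the 10-base motif shown above. Its level was 30.2, 40.1 and 45.8 CPM in untreated replicates 1 to 3, 28.9, 38.5 and 45.6 CPM in SM, and 28.7, 37.9 and 43.5 CPM in DSM. The values followed the replicate number, which took 98.35% of the sum of squares of log2 CPM over the 9 libraries, whereas the group took 1.41%. The log2 fold changes were -0.041 for SM and -0.075 for DSM against untreated with the block, and neither passed.

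SMPD1, the acid sphingomyelinase that releases ceramide from sphingomyelin, had the lowest log2 fold change of the 39 genes in SM against untreated. Its level was 17.1, 14.1 and 12.9 CPM in untreated replicates 1 to 3, 16.3, 11.1 and 10.7 CPM in SM, and 17.1, 12.5 and 13.2 CPM in DSM. Replicate 1 was the highest of each group and the groups overlapped. The log2 fold change was -0.22 (SE 0.067, blocked 95% interval -0.36 to -0.082), and the adjusted p was 0.0815 with the block in edgeR. It was 0.0289 without SM replicate 1, the only blocked fit leaving out 1 library that called SMPD1 (edgeR).

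PLA2G15, the lysosomal phospholipase A2 that degrades phospholipids and is a known target of cationic amphiphilic drugs, had 24.97, 24.7 and 22.4 CPM in untreated, 24.0, 21.6 and 20.8 in SM and 24.7, 22.5 and 22.5 in DSM replicates 1 to 3. The groups overlapped, and the log2 fold change in SM was -0.12 (blocked 95% interval -0.22 to -0.012, adjusted p = 0.273 in edgeR). LIPA, the acid lipase for cholesteryl esters and triglycerides, had 57.0, 54.9 and 47.8 CPM in untreated, 57.8, 47.0 and 46.3 in SM and 60.5, 53.1 and 52.6 in DSM replicates 1 to 3. The groups of LIPA overlapped too, and its log2 fold change in SM against untreated was -0.080 (blocked adjusted p = 0.423 in edgeR). Of the 7 lipid hydrolases and lipid-binding proteins, 3 (42.9%) had a positive log2 fold change in SM against untreated, against 49.7% of all genes. SM was above untreated in each same-numbered pair for 2 of the 7 and below in each for 2. Over all genes these shares were 17.4% and 18.9%. With the block 0 of the 7 passed, where 2.74% of all genes did. PLA2G15, LIPA, CTSC, CTSL, ATP6V1H and ATP6V1C1 are named after their values were seen.

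The membrane proteins stayed close to their untreated levels. LAMP1 was the most abundant of them after CD63 per length, and 1 of its 6 matches of CACGTGAC is shown above. It had 406.2, 428.6 and 408.4 CPM in untreated replicates 1 to 3. The SM libraries had 419.9, 426.2 and 394.8 CPM, and the DSM libraries 394.0, 414.5 and 426.6 CPM. The groups overlapped, and the blocked 95% interval of the LAMP1 log2 fold change in SM ran from -0.076 to 0.071. MCOLN1, the lysosomal calcium channel TRPML1, had 19.4, 19.9 and 18.4 CPM in untreated, 19.3, 21.9 and 17.6 in SM, and 18.4, 18.2 and 19.8 in DSM replicates 1 to 3. Its groups also overlapped, and its blocked interval in SM was -0.11 to 0.15.

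The V-ATPase subunits gave a mean log2 fold change of 0.0016 in SM and -0.0017 in DSM against untreated, and 0 of 9 passed. ATP6V1A, the catalytic A subunit of the cytosolic V1 sector, had 105.4, 90.8 and 96.9 CPM in untreated replicates 1 to 3, 100.2, 85.1 and 90.3 in SM, and 100.9, 91.7 and 89.7 in DSM. SM was below untreated in each pair though the groups overlapped, and the log2 fold change was -0.089 (blocked adjusted p = 0.211 in edgeR). The regulatory H subunit, ATP6V1H, pointed the other way, with a log2 fold change of 0.12 (blocked adjusted p = 0.205 in edgeR), and so did the C subunit ATP6V1C1 with 0.086 (adjusted p = 0.292). The SM libraries of ATP6V1C1, 56.8 to 59.7 CPM, were all above the untreated ones, 54.4 to 56.2 CPM, so that 3 members did not overlap between SM and untreated, all higher in SM, against 3.28% of all genes higher and 3.46% lower. SM was above untreated in each same-numbered pair for 7 of the 39 genes and below in each for 9, against 17.4% and 18.9% of all genes.

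**Figure D3:**
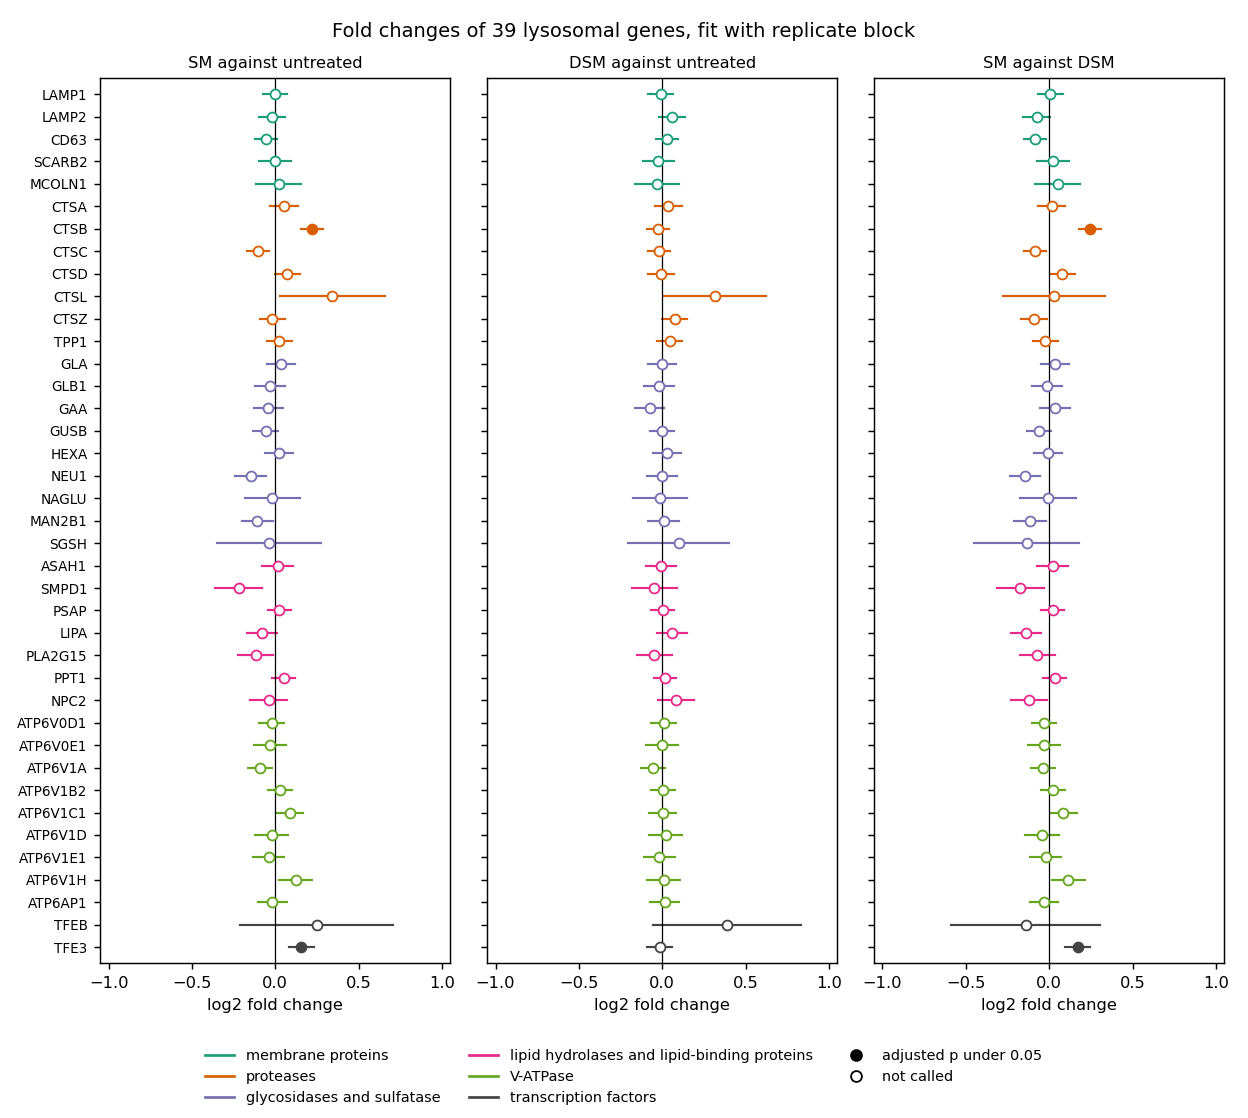
Log2 fold changes of the 39 lysosomal genes in the 3 comparisons from the fit with the replicate block, with 95% intervals; filled points have an adjusted p under 0.05 over all genes tested. CTSB and TFE3 are filled for SM against untreated and SM against DSM, and no gene is filled for DSM against untreated.

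In DSM against untreated cells 0 of the 39 genes passed with or without the block, as for all genes (0% called in both fits). At an unadjusted p under 0.05 the members numbered 0 without the block and 1 with it, against 103 and 650 of all genes (edgeR), and DESeq2 and limma voom called 0 genes in either form. The blocked log2 fold changes ran from -0.075 for GAA to 0.39 for TFEB. CTSB, with a blocked 95% interval of -0.089 to 0.041, and TFE3, with -0.089 to 0.061, had intervals in DSM that did not reach their log2 fold changes in SM. For 36 of the 39 genes the blocked interval lay within 1.2-fold of no change in DSM, the exceptions being CTSL, SGSH and TFEB. The same held for 34 in SM, where CTSB and SMPD1 joined these exceptions. DSM was above untreated in each same-numbered pair for 6 of the 39 genes and below in each for 2, against 14.3% and 15.1% of all genes.

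A single gene, NPC2, had DSM libraries that did not overlap the untreated ones, against 2.2% of all genes higher and 2.22% lower. NPC2 hands cholesterol to NPC1 in the lysosome. Its level was 22.2, 22.7 and 22.6 CPM in untreated replicates 1 to 3, 22.9, 22.1 and 20.9 in SM, and 24.4, 22.8 and 24.3 in DSM. DSM replicate 2 exceeded the highest untreated library only narrowly, and the log2 fold change was 0.080 (blocked adjusted p = 0.999 in edgeR). CTSZ, cathepsin Z, a carboxypeptidase, had 100.1, 82.5 and 80.8 CPM in untreated, 95.3, 79.6 and 84.8 in SM, and 104.4, 82.5 and 90.4 in DSM replicates 1 to 3. Its groups overlapped, and its log2 fold change in DSM was 0.074 (blocked adjusted p = 0.999 in edgeR).

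SM and DSM were given at the same dose for the same time, and this was the 1 pair of compounds compared. Without the block 0 of the 39 genes differed, as for all genes (0% called), and 2 members had an unadjusted p under 0.05 against 396 of all genes (edgeR). DESeq2 and limma voom also called 0 members without the block. With the block, 2 members were higher in SM and 0 lower, against 3.88% of all genes called, 1.73% higher and 2.15% lower. At an unadjusted p under 0.05 the members numbered 13 with the block, against 2535 of all 15619 genes (edgeR). This share was larger among the 39 members than among all genes, and the difference was not tested. Of the 11 uncalled members among the 13, CTSD, ATP6V1C1 and ATP6V1H were higher in SM. The rest, CD63, CTSC, CTSZ, NEU1, MAN2B1, SMPD1, LIPA and NPC2, were lower. CTSB was higher in SM by 0.24 on the log2 scale (SE 0.032, 95% interval 0.18 to 0.31; pairs 0.23, 0.24 and 0.26), with an adjusted p of 3.29e-05 with the block and 0.9998 without it (edgeR). It kept this call in all 9 blocked fits that left out 1 library (0.23 to 0.25). TFE3 was higher by 0.17 (SE 0.036, 95% interval 0.096 to 0.25; pairs 0.20, 0.23 and 0.083), with an adjusted p of 0.0064 with the block and 0.9998 without it (edgeR). TFE3 lost this call without DSM replicate 1 (0.0625) or DSM replicate 2 (0.0716) in edgeR.

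The other 37 genes differed between SM and DSM by -0.17 (SMPD1) to 0.11 (ATP6V1H) on the log2 scale with the block, and the smallest adjusted p was 0.0665, for NEU1 (edgeR, log2 fold change -0.15). LIPA followed with -0.14 (adjusted p = 0.087 in edgeR). For 34 of the 39 genes the blocked 95% interval lay within 1.2-fold of no difference, and for 38 within 1.5-fold, the exception being TFEB with -0.59 to 0.30. The groups did not overlap for CTSB and TFE3, higher in SM, and CTSC, lower in SM, against 3.41% of all genes higher and 3.16% lower. SM was below DSM in each same-numbered pair for 11 of the 39 genes (28.2%) and above in each for 4 (10.3%), against 16.2% and 16.3% of all genes.

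The 8 genes with CACGTG in their promoter window included neither CTSB, which had no promoter entry, nor TFE3, and 0 of them passed in any comparison. With 2.74%, 0% and 3.88% of all genes called with the block, a count of 0 among 8 says nothing about these genes. Of the 19 genes with an entry but no match, 1, TFE3, passed in SM against untreated, and their median log2 fold change was -0.025. Without the block, the log2 fold changes of the 8 genes with CACGTG ran from -0.15 (NEU1) to 0.072 (CTSD) in SM against untreated. Their median there was -0.012, and in DSM against untreated the 8 values ran from -0.075 to 0.038. Values in every library are given above for GAA and MCOLN1, which hold the 10-base motif, and for CTSD, LAMP1 and NEU1.

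For 30 of the 39 lysosomal genes the replicate number took more of the sum of squares than the group did. Over the 9 libraries it took a median of 57.15% of the sum of squares of a member's log2 CPM, and the group took 8.55%, against 52.2% and 14.2% over all genes. The libraries numbered 1 were higher than both others in all 3 groups for 15 of the 39 genes (38.5%, against 22.7% of all genes) and lower for 6 (15.4%, against 21.7%). The 15 included NEU1, SMPD1, CTSC, CTSZ, LIPA and 5 V-ATPase subunits, and the 6 were SCARB2, CTSB, TPP1, GAA, GUSB and SGSH. TFE3 stood at the other end, with 83.8% of its sum of squares between groups and 3.31% between replicate numbers, and CTSB had 62.7% and 37.0%. The labels do not say what a replicate number shares.

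**Figure D4:**
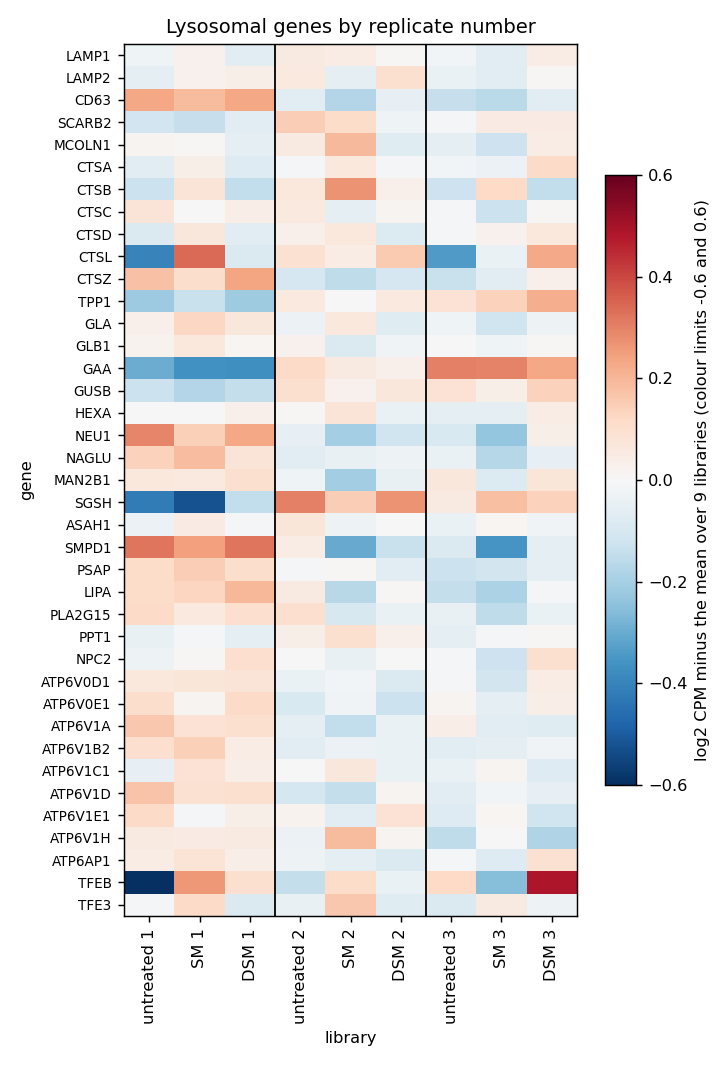
Log2 CPM of the 39 lysosomal genes in each library minus the mean of that gene over the 9 libraries, with libraries ordered by replicate number. Columns of the same number resemble each other for genes such as GAA, CD63 and SMPD1, while TFE3 is highest in the 3 SM columns.

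Per length, the untreated levels covered a wide range. CD63, a tetraspanin of late endosomes and lysosomes, was highest with 255.3 ± 35.9 RPKM (CPM per kilobase of transcript, SD, n = 3), followed by LAMP1 with 153.5 ± 4.56 RPKM. ATP6V0D1 with 143.9 ± 5.30 and CTSC with 138.7 ± 4.50 RPKM came next and overlapped each other, and CTSD had 105.1 ± 4.35 RPKM. CTSB ranked 15 with 29.4 ± 2.28 RPKM and TFE3 ranked 18 with 25.7 ± 0.691 RPKM, where CTSB overlapped ATP6AP1, the gene above it, and TFE3 overlapped both of its neighbours in the order. The lowest were CTSL with 0.986 ± 0.191, SGSH, the heparan N-sulfatase, with 0.655 ± 0.160, and TFEB with 0.4219 ± 0.106 RPKM, where SGSH and TFEB overlapped. TFE3 was the higher of the 2 factors in these cells per length in all 3 groups.

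Other lysosomal genes were taken from lists of 96, of which 88 were tested: 29 hydrolases and cofactors, 24 membrane proteins and transporters, 12 V-ATPase subunits, 22 genes of MiT/TFE factors, sorting and nutrient sensing, and CUBN. Without the block 0 of the 88 passed in any comparison, and 2, 0 and 3 had an unadjusted p under 0.05 in SM against untreated, DSM against untreated and SM against DSM (edgeR). With the block 1 was higher and 2 lower in SM against untreated, 0 passed in DSM against untreated, and 1 was higher and 1 lower in SM against DSM. Over all genes the shares called with the block were 2.74%, 0% and 3.88%, so the called counts among the 88 are near that background or below it. The blocked counts at an unadjusted p under 0.05 were 18, 6 and 20, against 2317, 650 and 2535 of all genes (edgeR). The median log2 fold change in SM against untreated was -0.032 for the hydrolases, -0.0036 for the membrane proteins, -0.023 for the V-ATPase subunits and -0.011 for the sorting and sensing genes.

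SLC29A3, a nucleoside transporter of the lysosomal membrane, had 13.3, 12.5 and 13.5 CPM in untreated replicates 1 to 3 and 15.7, 15.7 and 15.1 in SM, without overlap (blocked log2 fold change 0.25, adjusted p = 0.0294 in edgeR). ATP6AP2, the prorenin receptor and a V-ATPase accessory protein, had 71.1, 70.8 and 65.9 CPM in untreated and 62.7, 62.0 and 62.0 in SM, also without overlap (-0.15, adjusted p = 0.0215 in edgeR). SORT1, a sorting receptor for lysosomal proteins, had 66.8, 58.5 and 59.7 CPM in untreated and 62.7, 48.6 and 55.2 in SM, with overlapping groups (-0.15, adjusted p = 0.0402 in edgeR). Each of these calls depended on the libraries: in blocked fits that left out 1 library, SLC29A3 and SORT1 kept it in 4 of 9 and ATP6AP2 in 5 of 9, and the highest adjusted p was 0.178, 0.388 and 0.248 in edgeR. All 3 lost it without any 1 of the untreated libraries. SLC29A3 also lost it without SM replicate 1 or 2, ATP6AP2 without SM replicate 1, and SORT1 without SM replicate 2 or 3. In the blocked libraries numbered 2 and 3 the adjusted p was 0.145 for SLC29A3, 0.215 for ATP6AP2 and 0.0687 for SORT1, and SORT1 had 0.0683 with library totals in place of TMM (edgeR).

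NAGPA, which uncovers the mannose 6-phosphate tag that sorts hydrolases to lysosomes, had 26.0, 29.7 and 25.7 CPM in SM replicates 1 to 3 and 24.0, 22.8 and 23.6 in DSM, without overlap (blocked log2 fold change 0.21, adjusted p = 0.0329 in edgeR). ACP2, the lysosomal acid phosphatase, had 35.5, 31.2 and 28.6 CPM in SM and 39.1, 34.6 and 35.0 in DSM, with overlapping groups (-0.19, adjusted p = 0.0147 in edgeR). NAGPA kept its call in 2 of 9 blocked fits that left out 1 library, those without SM replicate 1 or DSM replicate 1, with adjusted p-values up to 0.315 in edgeR. ACP2 kept its call in 7 of 9 and lost it without SM replicate 3 (0.119) or DSM replicate 3 (0.146). Of the 2 endocytic receptors known to bind aminoglycosides, CUBN had 1.91 ± 0.759 CPM in untreated cells (SD, n = 3) and LRP2, megalin, was at 0 to 0.0528 CPM in every library.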

How the data were processed

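Poly(A) RNA of 9 SW620 cultures was sequenced. The values used were the raw counts deposited by the authors, whole-number read counts per gene. The submitters' processing notes name the build hg38 and the tools TopHat2 2.1.1, featureCounts 2.0.0, cutadapt 3.4 and DESeq2 1.26.0, among others. Not given in the sources used here are the strand setting, the annotation and how multi-mapping reads were counted. The 16 members that overlap another RefSeq record are therefore uncertain. They are ASAH1, ATP6V0E1, ATP6V1D, CD63, CTSA, CTSD, GLA, GLB1, LIPA, MCOLN1, NPC2, PPT1, PSAP, SCARB2, SGSH and TFEB. A deposited table of normalized values was not used.

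The counts were fitted with edgeR 4.0.16 (R 4.3.3; limma 3.58.1). Low genes were removed by filterByExpr (minimum count 10, minimum total 15). All 9 libraries, scaled by TMM (factors 0.981 to 1.02), entered 1 robust quasi-likelihood fit with group as its only term. Two-sided F tests were adjusted by Benjamini-Hochberg over 15619 genes at 0.05. For log2 CPM the prior count was 2, and RPKM the longest principal transcript. Total counts ranged from 39315662 to 65562227, and the median half-width of a member's 95% interval was 0.165 on the log2 scale without the replicate block and 0.085 to 0.086 with it. Summed over all tested genes, sampling noise was smaller than the spread of replicates (chi-square per degree of freedom 6.8 to 35.7). Genes with many reads weigh most in this sum, so it does not describe low members such as TFEB, CTSL and SGSH.

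Replicates carry the numbers 1 to 3 in the labels of each group. Same-numbered libraries deviated together (correlations 0.227 to 0.582 over 9 pairs, against -0.404 to 0.161 over 18 pairs of different numbers), so libraries were taken as paired under the rule that every pair exceeds 0.1, and a fit with the number as a block is given beside results. Pairs between numbers 2 and 3 gave 0.104 to 0.161, below every same-numbered pair but also above 0.1. The rule alone therefore does not set these 2 numbers apart. The members, lists and tests were chosen with earlier results of these data known. Named genes were those called in either fit, the 2 members of at least 5 CPM farthest above and below the mean in each comparison, 6 chosen whatever their values, and up to 3 called genes of each other list; other genes described with their values were named after these were seen. The scripts were tested on simulated data. Alternatives were other scalings, filters, DESeq2 1.42.0, limma voom, a fit of the groups compared, the block, and leaving out each library.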

Additional observations from a re-analysis of the deposited data

How the results depend on the processing

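The replicate block, which pairs libraries by number, moved the counts most. For SM against untreated, 3 genes passed without it and 428 with it. Unblocked alternatives gave 5 with no filter, 0 with only the groups compared, 11 with DESeq2, 73 in the libraries numbered 2 and 3, and 0 to 3 when leaving out each library. Blocked ones gave 390 with DESeq2, 438 with voom, 390 with library totals, 308 in the libraries numbered 2 and 3, and 149 to 569 when leaving out each library, with 187, 169 and 149 without untreated replicate 1, 2 and 3 and 268 without SM replicate 3. For DSM against untreated, 0 passed, and 1 in the blocked libraries numbered 2 and 3. For SM against DSM, 0 passed without the block and 606 with it. Other values were 3 with no filter, 9 with DESeq2 and 186 in the libraries numbered 2 and 3. Blocked, they were 513 with DESeq2, 590 with voom, 529 with library totals, 627 in the libraries numbered 2 and 3, and 265 to 846 when leaving out each library, with 286 and 265 without DSM replicate 2 and 3 and 326 without SM replicate 3. Leaving out each library without the block gave 0.

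Of the 39 members, 0 passed without the block in either SM comparison, and 2 passed with it in edgeR, DESeq2, voom and with library totals. In the blocked libraries numbered 2 and 3, 1 passed, CTSB; the adjusted p of TFE3 was then 0.0559 against untreated and 0.0689 against DSM (edgeR). Blocked fits that left out 1 library gave 1 to 4 members. Without SM replicate 1, ATP6V1H and SMPD1 passed against untreated, and ATP6V1H and LIPA against DSM. The mean log2 fold change of the members lay between -0.020 and 0.027 in SM, 0.011 and 0.038 in DSM, and -0.043 and 0.0034 for SM against DSM when leaving out each library. Of 1632 values of named genes under alternatives, 90 changed sign, and 0 of these were called. TFEB, CTSL and SGSH are limited by their low counts. Blocked voom, blocked library totals and the libraries numbered 2 and 3 were added after seeing the data.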
